A study of Mus musculus with 9 samples.

Results

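Levels of 31 genes of fatty acid oxidation and ketone body metabolism were compared in mouse colon. They were chosen by name and matched by gene symbol, and all 31 were found among the 54491 rows of the deposited table. The colons came from C57BL/6 mice that entered the study at 6 weeks of age and were sampled at postnatal day 98. The groups were control mice, mice fed a high-fat diet (HFD), and mice fed this diet and dosed with Papillibacter cinnamivorans, a gut bacterium, by gavage through a tube into the stomach (the bacterium group below). Each group had 15 mice at the start (45 in all), and 3 libraries of each group were analysed here: replicates 1, 2 and 3 of control, 1, 2 and 4 of HFD, and 1, 3 and 4 of the bacterium group. No genetic change is named for any group, and gavage is named for the bacterium group only, so the bacterium and the gavage cannot be told apart. Values are FPKM, fragments normalised for transcript length and library size, given per library or as mean ± SD (n = 3 libraries).

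Fatty acids are first joined to coenzyme A, carried into mitochondria as carnitine esters, and shortened by repeated rounds of beta-oxidation, whose electrons pass through the electron transfer flavoprotein to the respiratory chain. Peroxisomes run a parallel spiral, with enzymes of their own, for very long and branched chains, and hand shortened chains to mitochondria. The acetyl-CoA formed can be turned into ketone bodies, and colonocytes are known both to burn short-chain fatty acids such as butyrate and to make ketone bodies from them.

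In HFD colon, 5 of the 31 genes were lower than in control and 1 was higher. The genes that fell were Pdk4, the peroxisomal thiolases Acaa1a and Acaa1b, the thioesterase Acot2 and the electron transfer subunit Etfb, and the gene that rose was Oxct1, the enzyme that starts ketone body use. In the bacterium group compared with HFD, Pdk4, Acaa1b and Acot2 were higher and Oxct1 was lower, so 4 genes passed in both comparisons, with opposite signs. These comparisons share the HFD libraries and are not independent. Between the bacterium group and control only Etfb passed the test, and it was lower.

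The tests were made with limma on log2(FPKM + 1), with p-values adjusted by the Benjamini-Hochberg method over 17907 genes and a gene called at an adjusted p below 0.05. Of all genes tested, 10.6% were called higher and 9.11% lower in HFD with control as the reference, 4.54% higher and 7.6% lower in the bacterium group than in HFD, and 0.262% higher and 0.843% lower in the bacterium group than in control. The share of members was 3.23% higher and 16.1% lower in the first comparison, 9.68% and 3.23% in the second, and 0.0% and 3.23% in the third, where 0 members were higher and 2 lower at an unadjusted limma p below 0.05. The share of all tested genes at that unadjusted threshold was not counted. Unadjusted counts, here and below, therefore say nothing particular about the members. The median log2 difference over the 31 members was -0.54 for HFD against control, 0.41 for the bacterium group against HFD and -0.08 for the bacterium group against control, while the medians over all tested genes were -0.00107, -0.0138 and -0.00988. The first of these member medians was -0.85 without control replicate 1 and -0.34 without control replicate 3, and the third was -0.43 without control replicate 1 and above 0 without control replicate 2 (0.07) or 3 (0.14). Of the 31 members 29 lay below 0 in the first comparison and 25 above 0 in the second, most of them without passing the test. All 31 members passed the filter of at least 0.5 FPKM in at least 3 libraries. Acaa1b did so only through the control and bacterium libraries, since every HFD library was under the filter, and therefore had to differ between groups. In whole tissue, fewer cells of a type and less RNA per cell cannot be told apart.

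**Figure D1:**
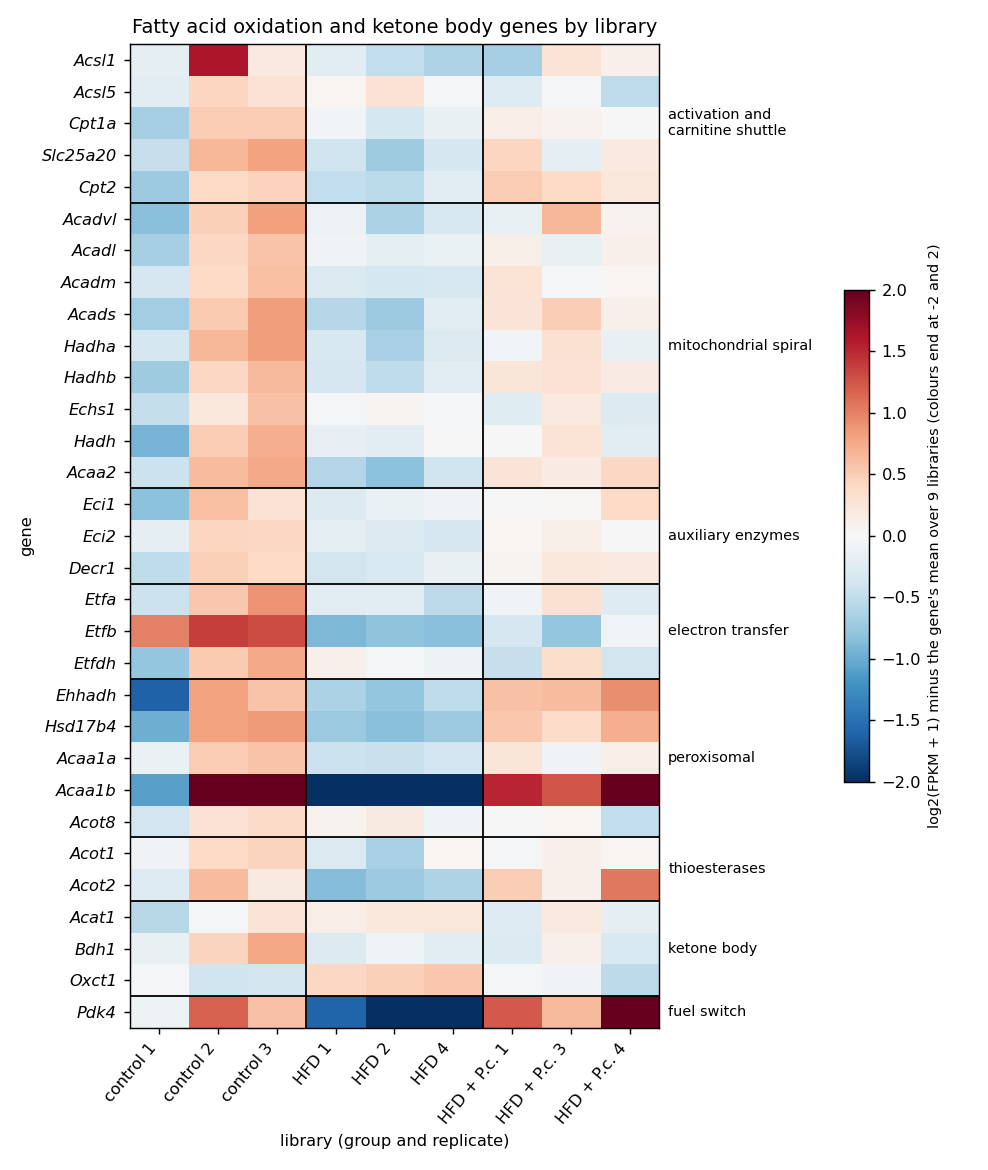
Each cell shows log2(FPKM + 1) of a gene in a library minus that gene's mean over the 9 libraries; rows are the 31 genes grouped by step, columns are libraries grouped by treatment, and colours end at -2 and 2. Control replicate 1 is paler or bluer than the other 2 control libraries in 30 of the 31 genes, and the row of Oxct1 has its 3 highest values in HFD.

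Control replicate 1 stood apart from the other control libraries in these genes. Its value was below both other control replicates in 30 of 31 members (in 42.1% of all tested genes), was the lowest of all 9 libraries in 13, and had a median ratio of 0.449 to the mean of control replicates 2 and 3 (range 0.0616 to 1.28). On FPKM + 1 the median ratio was 0.459 over members and 0.975 over all tested genes. The share of all genes lowest in this library was not counted. In the same library the summed smooth muscle markers (Acta2, Myh11, Des, Tagln, Cnn1, Actg2) reached 6643 FPKM against 1812 and 1274 in the other controls, and the 7 pan-epithelial markers summed to 3597 against 6241 and 7081. The posterior gut gene Hoxa13 was at 26.0 FPKM in it, against 2.06 and 0.385 in the other controls and 31.3 to 36.0 in HFD. Hoxb13 was at 7.73, against 0.0598 and 0.0898 in the other controls and 118.3 to 134.2 in HFD, while Hoxd13 was at 0.45 and Hoxd12 at 0 in this library. The part of muscle, epithelial and position markers in its low values was not tested. The spread within control was correspondingly wide, with a median coefficient of variation over the members of 39.8%, against 10.2% in HFD and 17.3% in the bacterium group. Without control replicate 1 limma called 24 members lower and 1 higher in HFD than in control, where 13.5% of all tested genes were lower and 12.2% higher. It called 14 higher and 1 lower in the bacterium group than in HFD (9.41% and 11.0% of all genes), and 0 higher and 3 lower than in control (1.82% and 4.91%).

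Markers of position and cell type separated the HFD libraries from the other 6. The homeobox genes Hoxd13, Hoxb13, Hoxa13 and Hoxd12, which mark the posterior gut, summed to 240.8, 263.3 and 247.4 FPKM in HFD, to 34.2, 2.12 and 0.502 in control and to 6.43, 12.3 and 2.46 in the bacterium group. Hoxd12 was listed at 0 in all 6 libraries outside HFD. Most of the sum in control replicate 1 was Hoxa13 (26.0 FPKM), which limma did not call in HFD against control (adjusted p = 0.064). The 5 proximal enterocyte markers (Fabp2, Alpi, Tmigd1, Apoa4, Sis) summed to between 19.4 and 32.9 FPKM in HFD against 901 to 3049 in control and 1323 to 2261 in the bacterium group, and B cell markers to between 73.3 and 96.9 against 1.97 to 13 in control and 4.89 to 8.55 in the bacterium group. The sum of the 7 pan-epithelial markers, which define the lining of the colon, overlapped between all groups. Of the 7, limma called Vil1, which was lower in HFD than in control (-0.88, limma adjusted p = 0.012). Mitochondrially encoded transcripts made up 9.69% to 13.5% of the summed FPKM in HFD, 16.6% to 25.2% in control and 21.6% to 34.8% in the bacterium group. Hepatocyte markers (Alb, Apoa2, Ttr) summed to 280.8 FPKM in bacterium replicate 3 and to 5.38 and 13.8 in the other bacterium libraries. Their sums were 56.9 to 109.3 in control and 54.7 to 68.6 in HFD. The 3 markers did not move together: Ttr was highest in HFD, while Alb and Apoa2 were lower in HFD than in control. Pdk4 and Acaa1b were lowest of the bacterium group in replicate 3, and the part of the hepatocyte markers in any result was not tested. No label gives the stretch of colon sampled, so diet and position along the colon cannot be told apart in HFD against control. In the bacterium group against HFD both groups had the diet. There the bacterium with its gavage cannot be told apart from position along the colon.

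**Figure D2:**
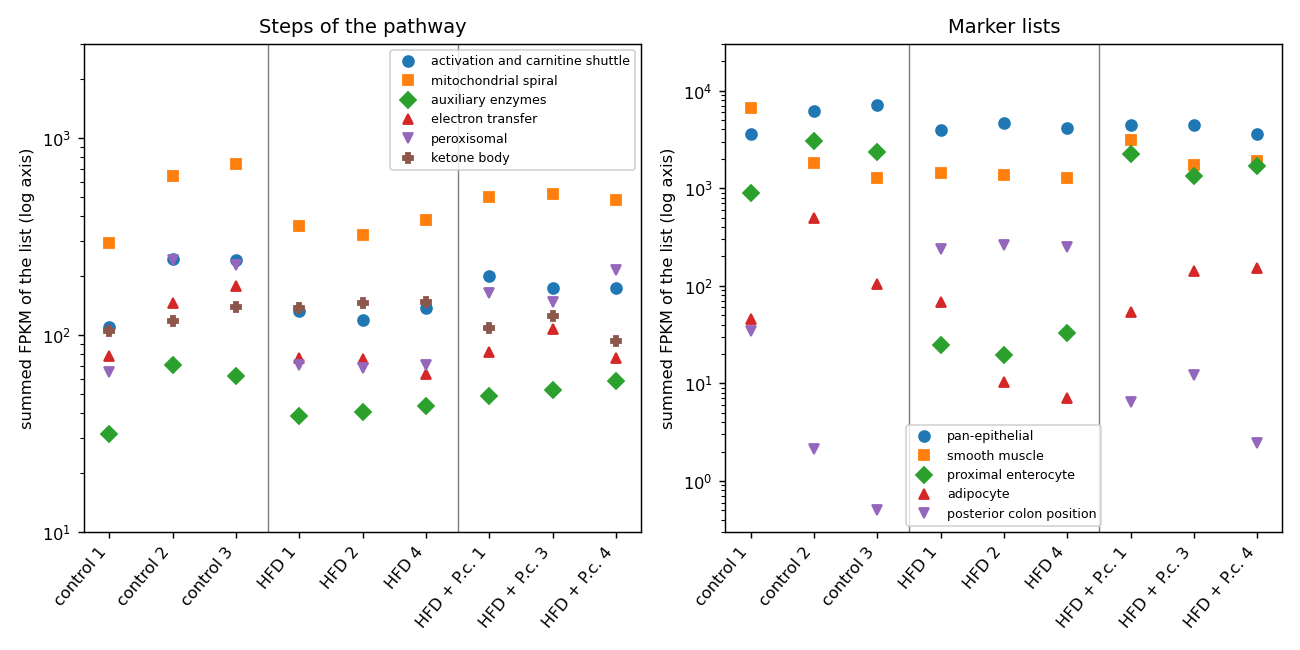
Summed FPKM (log axis) of the genes of each step (left) and of each marker list (right) in the 9 libraries, with vertical lines between groups. The peroxisomal sum is 68.3 to 70.4 in HFD and 147.6 to 213.4 in the bacterium group, while posterior position markers are at least 240.8 in HFD and at most 34.2 elsewhere.

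Pdk4 encodes a kinase that switches off pyruvate dehydrogenase and so spares glucose carbon when fat is burned. It measured 13.5, 34.4 and 22.4 FPKM in control, 4.10, 2.87 and 2.91 in HFD and 35.3, 23.5 and 63.6 in the bacterium group. All 3 HFD libraries were below every other library, and control and bacterium libraries overlapped. The mean fell 7.12-fold from control to HFD (a log2 difference of -2.43 with SE 0.39, limma adjusted p = 0.0037) and was 12.4-fold higher in the bacterium group than in HFD (3.18, SE 0.39, limma adjusted p = 0.0012). The difference between the bacterium group and control was 0.75 (limma adjusted p = 0.33). Pdp2, a phosphatase that reverses the action of the kinase, moved the other way: it was at 1.78, 1.36 and 2.62 FPKM in control, 7.39, 6.55 and 6.79 in HFD and 1.96, 2.29 and 1.53 in the bacterium group. Its log2 difference was 1.46 for HFD against control (limma adjusted p = 0.00081) and -1.44 for the bacterium group against HFD (limma adjusted p = 0.0011). Pdk4 exceeded Pdp2 in each of the 6 libraries outside HFD, by 7.62-fold to 41.6-fold, and was below it in each HFD library (0.429 to 0.555).

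Pdk4 and several peroxisomal enzymes are textbook targets of the nuclear receptor PPAR alpha, which binds pairs of AGGNCA-type elements. The 250 bases before the start of Pdk4 (chr6:5496279-5496528, minus strand) are shown because this gene passed the test in both comparisons with few bases shared with other genes. The sequence is that of RefSeq on GRCm38.p6, which is not the build of the expression values, and capitals mark matches to the single element AGGNCA on either strand.
Pdk4: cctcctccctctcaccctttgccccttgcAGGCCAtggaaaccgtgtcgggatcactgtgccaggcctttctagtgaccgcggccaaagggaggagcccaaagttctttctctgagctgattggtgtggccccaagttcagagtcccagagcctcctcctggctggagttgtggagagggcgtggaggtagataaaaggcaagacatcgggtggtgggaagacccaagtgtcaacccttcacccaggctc
The match, AGGCCA, starts 221 bases before the transcription start. A single element is common: 51.3% of all 250-base upstream sequences in the table hold at least 1. A pair in the same direction with 1 base between the copies was searched on both strands over 250 bases before to 50 bases after the start, and was found in 0 of the 27 members with a promoter in the table, against 0.381% of all 32851 promoters. At that share 0 of 27 is the likeliest count for any genes, so it says nothing particular about the members. Looser or more distant pairs were not searched. Letters that match are a description and show no binding.

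Genes of activation and of the carnitine shuttle did not pass the test in any comparison. At an unadjusted limma p below 0.05, 1 of the 5 was lower in HFD than in control and 1 higher in the bacterium group than in HFD. No share of all genes was counted at that threshold. Acsl1 and Acsl5 join long-chain fatty acids to coenzyme A, Cpt1a loads them onto carnitine at the outer mitochondrial membrane, Slc25a20 carries the ester across the inner membrane and Cpt2 frees it inside. Their median log2 difference was -0.46 in HFD against control and 0.34 in the bacterium group against HFD. The first was -0.85, -0.28 and -0.26 without control replicate 1, 2 and 3 in turn. Cpt1a, the rate-controlling step, was at 40.6 ± 16.4 FPKM in control, 30.7 ± 3.35 in HFD and 36.9 ± 1.60 in the bacterium group. Its control values were 21.7, 50.2 and 50.1 FPKM, so that the HFD libraries lay between replicate 1 and the other controls. Acsl1 was at 3.44, 14.6 and 4.79 FPKM in control, with its peak in replicate 2, where adipocyte markers (Adipoq, Plin1, Cidec, Fabp4, Lep, Plin4) summed to 496.5 FPKM against 45.5 and 103.7 in the other controls. The part of fat cells in that value was not tested.

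The 9 enzymes of the mitochondrial spiral were all below 0 in HFD against control, and none passed the test (3 had an unadjusted limma p below 0.05, with no share of all genes counted). They are the chain-length-specific dehydrogenases Acadvl, Acadl, Acadm and Acads, the subunits of the trifunctional protein Hadha and Hadhb, and Echs1, Hadh and Acaa2 for the later steps of short and medium chains. Log2 differences ranged from -0.91 (Acaa2) to -0.12 (Echs1), with a median of -0.52, and the median for the bacterium group against HFD was 0.45, with 8 of 9 above 0. The former median was -0.89 without control replicate 1 and -0.21 without control replicate 3. Acaa2, the mitochondrial thiolase, had the difference closest to the threshold: it measured 71.5, 150.5 and 163.5 FPKM in control, 64.4, 54.6 and 73.4 in HFD and 116.1, 108.3 and 129.8 in the bacterium group. Control replicate 1 fell within the HFD range and the other controls lay far above it. The limma adjusted p was 0.057 for HFD against control (-0.91, SE 0.29) and 0.089 for the bacterium group against HFD (0.88, SE 0.29). Without control replicate 1 these became -1.29 (adjusted p = 0.00083) and 0.88 (adjusted p = 0.0036) in limma. Hadha and Hadhb, which form a single complex, differed by -0.80 and -0.48 in HFD against control, neither called (limma adjusted p = 0.090 and 0.30). The auxiliary enzymes Eci1, Eci2 and Decr1, which handle unsaturated chains, had a median of -0.39 and 0.32 in these comparisons and none was called (1 and 0 at an unadjusted limma p below 0.05). Leaving out control replicate 1, 2 or 3 gave a median of -0.69, -0.21 or -0.25 for the first.

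Etfb was the only gene from activation to electron transfer that passed the test, and it did so against control in both diet groups. It encodes the beta subunit of the electron transfer flavoprotein, Etfa the alpha subunit, and Etfdh the oxidoreductase that passes the electrons on to ubiquinone. Etfb measured 19.7, 25.7 and 24.4 FPKM in control, 4.54, 4.88 and 4.76 in HFD and 7.13, 5.001 and 8.90 in the bacterium group. All control libraries were above all others, and the HFD libraries were below all bacterium libraries by a small margin. The fall in HFD was 4.92-fold (-2.07 on the log2 scale, SE 0.18, limma adjusted p = 0.00022), and the bacterium group also lay below control (-1.62, SE 0.18, limma adjusted p = 0.024). This second call was lost in 9 of 20 alternative settings, among them leaving out control replicate 2 or 3, HFD replicate 1 or 2 or bacterium replicate 1 or 4 (adjusted p from 0.013 to 0.26 over the 20). The bacterium group was not called against HFD (0.45, SE 0.18, limma adjusted p = 0.15). Etfa, its partner, stood at 98.3 ± 41.6, 57.8 ± 6.50 and 73.1 ± 15.1 FPKM in control, HFD and the bacterium group and was not called in any comparison, and neither was Etfdh. The ratio of Etfb to Etfa was 0.369, 0.244 and 0.179 in control, 0.0737, 0.0795 and 0.0947 in HFD and 0.104, 0.0556 and 0.147 in the bacterium group. The Etfb value is uncertain, because 44.8% of 50-base stretches of its transcripts also occur in transcripts of other genes, chiefly the gene model Gm45233 that overlaps it on the same strand. Gm45233 was listed at 0 in 8 of 9 libraries.

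Peroxisomal genes had a median log2 difference of -0.73 in HFD against control and 1.31 in the bacterium group against HFD, next to -0.48 and 0.38 over the 20 mitochondrial genes from activation to electron transfer. Without control replicate 1 the HFD against control medians were -1.32 and -0.84, and without control replicate 3 that of the mitochondrial genes was -0.26. Of 5 peroxisomal genes 2 were called lower in HFD and 1 higher in the bacterium group, and of 20 mitochondrial genes 1 and 0. Acaa1b is in both peroxisomal counts and is the only gene in the second. It passed the filter only through control and bacterium libraries and had to differ, so these counts do not support a difference between compartments. Of all tested genes 9.11% were lower and 4.54% higher. The member counts depended on control replicate 1. Without it, limma called all peroxisomal genes but Acot8 lower in HFD, and all mitochondrial genes but Acsl1, Acsl5, Echs1 and Etfdh. The bacterium group was then called higher than HFD for all peroxisomal genes but Acot8. Among mitochondrial genes it was called higher for Slc25a20, Cpt2, Acadm, Acads, Hadhb, Acaa2, Eci2 and Decr1. The difference between compartments was not tested. Summed over the 5 genes, FPKM was 64.5, 241.6 and 225.4 in control, 70.1, 68.3 and 70.4 in HFD and 164.3, 147.6 and 213.4 in the bacterium group. Control replicate 1 was thus the only library outside HFD that was not above the HFD range.

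Acaa1b, a peroxisomal thiolase that splits off acetyl-CoA at the last step, had the largest difference of any member. It was at 4.83, 85.6 and 71.0 FPKM in control, 0.489, 0.284 and 0.233 in HFD and 34.5, 28.6 and 74.3 in the bacterium group. The HFD values were below those of every other library, and control replicate 1 lay between them and the rest. The log2 difference was -4.64 in HFD against control (SE 0.90, limma adjusted p = 0.0086) and 5.01 in the bacterium group against HFD (SE 0.90, limma adjusted p = 0.0076), and the ratios of means were 160.5 and 136.5. The low values rest on few fragments: the steps of the FPKM values give 18, 10 and 8 fragments in the HFD libraries and 161, 2547 and 2110 in control. Its near-copy Acaa1a was at 26.5, 42.1 and 44.0 FPKM in control, 21.4, 21.3 and 22.2 in HFD and 34.9, 27.8 and 32.1 in the bacterium group, again with all HFD libraries lowest. It was 1.73-fold lower in HFD than in control (-0.73 on the log2 scale, SE 0.19, limma adjusted p = 0.028), and the bacterium group was not called against HFD (0.52, SE 0.19, limma adjusted p = 0.12). The Acaa1a call was lost in 8 of 20 alternatives (adjusted p from 0.00096 to 0.17). These were TPM scaling, pan-epithelial scaling, the replicate block, and leaving out control replicate 2 or 3 or any HFD library. The ratio of Acaa1b to Acaa1a was 0.182, 2.04 and 1.61 in control, 0.0228, 0.0134 and 0.0105 in HFD and 0.989, 1.03 and 2.32 in the bacterium group. Since 39.6% of 50-base stretches of Acaa1b and 17.1% of those of Acaa1a occur in other genes, reads could have been shared between the copies.

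The upstream sequences of the thiolase pair are shown because the genes are near copies in their transcripts and differed in size of change (RefSeq, GRCm38.p6; Acaa1b chr9:119157094-119157343, minus strand; Acaa1a chr9:119341044-119341293, plus strand; capitals mark AGGNCA on either strand).
Acaa1b: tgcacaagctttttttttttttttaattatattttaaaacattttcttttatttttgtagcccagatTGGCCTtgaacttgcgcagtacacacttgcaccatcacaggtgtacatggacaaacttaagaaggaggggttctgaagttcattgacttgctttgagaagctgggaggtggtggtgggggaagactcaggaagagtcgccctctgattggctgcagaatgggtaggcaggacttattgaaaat
Acaa1a: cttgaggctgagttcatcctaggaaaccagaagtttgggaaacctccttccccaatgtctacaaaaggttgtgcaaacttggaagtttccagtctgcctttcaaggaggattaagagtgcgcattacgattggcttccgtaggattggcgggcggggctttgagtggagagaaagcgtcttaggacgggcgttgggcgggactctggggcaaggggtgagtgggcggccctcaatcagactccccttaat
In a global alignment 59.2% of the 250 bases were identical between the pair, within the 53.6% to 59.6% found for the other pairs among the 4 upstream sequences printed here. Acaa1b held 1 element, on the reverse strand 183 bases before the start, and Acaa1a held 0. The G and C content was 41.6% for Acaa1b and 53.6% for Acaa1a.

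Ehhadh and Hsd17b4, the bifunctional enzymes that hydrate and oxidise the chain ahead of the thiolase, were not called in either comparison. Ehhadh measured 6.81, 40.6 and 34.3 FPKM in control, 14.4, 12.9 and 15.8 in HFD and 35.0, 36.0 and 44.7 in the bacterium group, and Hsd17b4 15.2, 54.9 and 56.4, then 18.2, 16.9 and 18.2, then 45.3, 40.0 and 52.1. For both genes the bacterium libraries were all above the HFD libraries, and control replicate 1 was the lowest library of all. Against HFD the bacterium group was 1.36 (Ehhadh, limma adjusted p = 0.14) and 1.31 (Hsd17b4, limma adjusted p = 0.082) higher on the log2 scale. Leaving out control replicate 1 left these differences as they were, while their SE went from 0.53 and 0.42 to 0.13 and 0.11. The fit uses 1 spread for all 3 groups, so this library enters the SE of a comparison without control. Limma then called both (adjusted p = 0.00039 and 0.00020), with HFD against control at -1.32 and -1.59 (adjusted p = 0.00069 and 0.00012). Acot8, a thioesterase of peroxisomes, was at 16.4 ± 4.58, 15.5 ± 1.52 and 13.4 ± 2.71 FPKM in control, HFD and the bacterium group, with the smallest log2 difference of the class in both comparisons (-0.05 and -0.21).

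Acot2, a mitochondrial thioesterase that releases free fatty acids from coenzyme A, was at 5.06, 10.3 and 7.19 FPKM in control, 2.99, 3.40 and 3.72 in HFD and 9.22, 6.78 and 14.1 in the bacterium group. The HFD libraries were the 3 lowest. The log2 difference was -0.92 in HFD against control (SE 0.28, limma adjusted p = 0.047) and 1.29 in the bacterium group against HFD (SE 0.28, limma adjusted p = 0.017). The first call was lost in 11 of 20 alternatives (adjusted p from 0.017 to 0.19) and the second in 5 (0.0081 to 0.076). Leaving out any HFD library or bacterium replicate 1 ended both, leaving out control replicate 2 or 3 the first and bacterium replicate 4 the second. The first was also lost with no filter, under TPM scaling, quantile normalization or pan-epithelial scaling, and without mitochondrial and immunoglobulin genes. Its cytosolic copy Acot1 was at 2.78 ± 0.694, 1.57 ± 0.603 and 2.21 ± 0.139 FPKM and was not called. Of the 50-base stretches of Acot2, 27.7% occur in other genes, so the split between these copies is uncertain too.

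**Figure D3:**
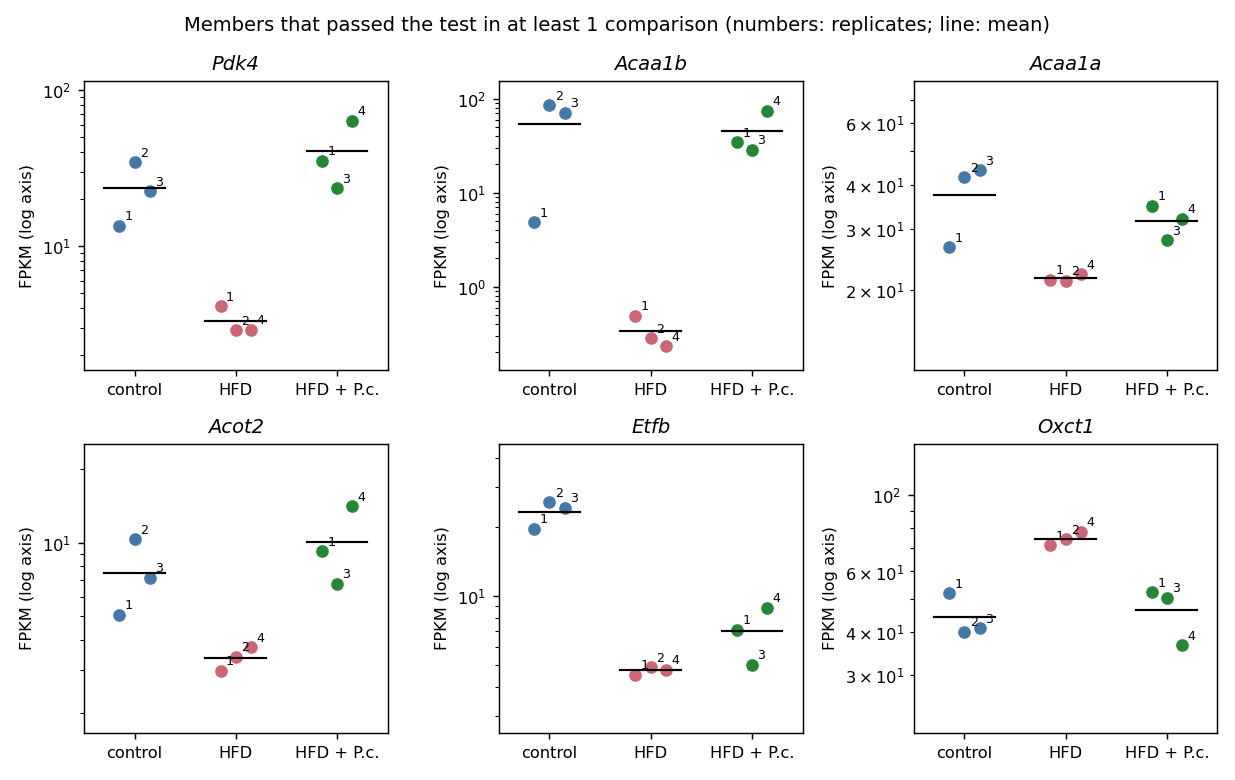
FPKM (log axis, scaled per gene) of the 6 genes called in at least 1 comparison; points are libraries labelled with their replicate number and lines are group means. HFD points are the lowest for Pdk4, Acaa1b, Acaa1a and Acot2 and the highest for Oxct1, and control points are the highest for Etfb.

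The 3 ketone body genes among the members did not move together. Oxct1, the transferase that activates acetoacetate for use as fuel, measured 51.8, 40.1 and 41.0 FPKM in control, 71.5, 74.4 and 78.2 in HFD and 52.3, 50.4 and 36.7 in the bacterium group. Each HFD library was above all 6 others. The gene rose 1.69-fold in HFD (0.75 on the log2 scale, SE 0.17, limma adjusted p = 0.015) and was lower in the bacterium group than in HFD (-0.69, SE 0.17, limma adjusted p = 0.029). The rise was lost in 4 of 20 alternatives, among them without control replicate 2 or HFD replicate 2 or 4 (adjusted p from 0.0061 to 0.065), and the second call in 7, among them without any HFD library or bacterium replicate 4 (0.012 to 0.12). The replicate block ended both calls, and quantile normalization or pan-epithelial scaling the second. Bdh1, which interconverts acetoacetate and beta-hydroxybutyrate, was at 28.4, 43.4 and 54.8 FPKM in control, 26.0, 29.7 and 27.1 in HFD and 26.0, 34.0 and 25.6 in the bacterium group. Control replicate 1 lay within the HFD range, and limma called no difference (adjusted p = 0.12 for HFD against control and 0.94 for the bacterium group against HFD). Without control replicate 1 limma called Bdh1 lower than control in HFD (-0.80, adjusted p = 0.0092) and in the bacterium group (-0.77, adjusted p = 0.036). Acat1, the thiolase that makes or splits acetoacetyl-CoA, was at 33.8 ± 9.56, 40.9 ± 1.46 and 34.1 ± 6.07 FPKM, with all groups overlapping. The upstream bases of Oxct1 are shown as those of the called gene that was highest in HFD (chr15:4026178-4026427, plus strand, RefSeq GRCm38.p6).
Oxct1: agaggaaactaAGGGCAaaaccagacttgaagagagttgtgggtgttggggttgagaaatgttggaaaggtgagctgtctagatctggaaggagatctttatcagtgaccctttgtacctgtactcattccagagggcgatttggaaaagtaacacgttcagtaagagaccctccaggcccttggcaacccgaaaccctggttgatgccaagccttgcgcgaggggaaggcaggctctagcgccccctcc
It held 1 match in capitals, AGGGCA, 239 bases before the start.

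Slc16a6, a carrier that exports ketone bodies and a further gene of the pathway outside the members, was at 1.32 ± 0.137, 2.30 ± 0.234 and 1.33 ± 0.345 FPKM, with the HFD libraries highest. It rose in HFD against control (0.51, limma adjusted p = 0.032), a call lost in 7 of 20 alternatives (0.013 to 0.14), among them leaving out control replicate 2 or 3 or any HFD library. It was lower in the bacterium group than in HFD (-0.51, limma adjusted p = 0.044), a call lost in 12 of 20 alternatives (0.023 to 0.20), leaving out any library but control replicate 1 or bacterium replicate 4 among them.

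**Figure D4:**
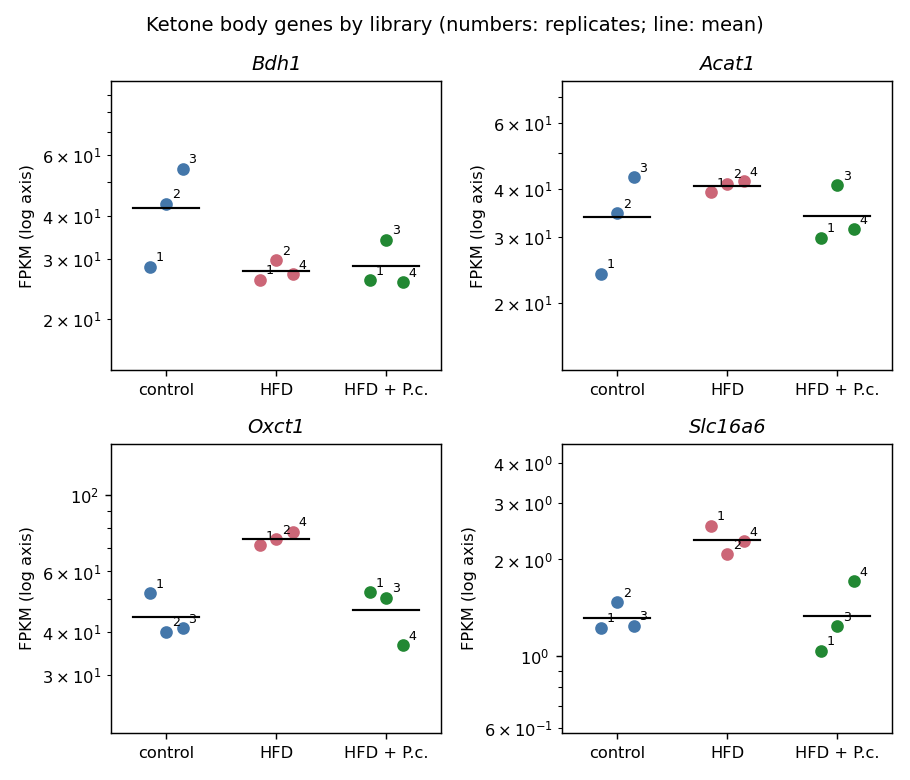
FPKM (log axis, scaled per gene) of 4 ketone body genes; points are libraries labelled with their replicate number and lines are group means. Oxct1 spans 36.7 to 78.2 FPKM with the HFD libraries highest, while the groups of Bdh1 and Acat1 overlap.

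Beyond the members, 63 further genes of the pathway had a row in the table and 55 were tested. In HFD against control 9 fell and 3 rose (16.4% and 5.45%, next to 9.11% and 10.6% of all tested genes), with a median of -0.24. In the bacterium group against HFD 6 were higher and 5 lower (10.9% and 9.09%, next to 4.54% and 7.6% of all tested genes), with a median of 0.11. Of 12 tested peroxisomal genes 3 (25.0%) fell in HFD. Acox2 was among these 3 and among the 9 further genes that fell. It passed the filter only through control and bacterium libraries and had to differ, so it adds no support to either count. In the bacterium group 3 (25.0%) of the 12 peroxisomal genes were higher and 1 (8.33%) lower than in HFD. Of 12 mitochondrial genes limma called 0 in any comparison (0 also at an unadjusted p below 0.05). Abcd3, a transporter that carries fatty acids into the peroxisome, was at 26.96, 73.0 and 84.4 FPKM in control, 21.9, 19.9 and 25.3 in HFD and 62.8, 68.6 and 62.2 in the bacterium group. It fell in HFD (-1.27, SE 0.36, limma adjusted p = 0.039) and was higher in the bacterium group than in HFD (1.495, SE 0.36, limma adjusted p = 0.029), calls lost in 12 and 8 of 20 alternatives, among them leaving out any HFD or bacterium library and, for the first, control replicate 2 or 3 (adjusted p up to 0.12 and 0.11). Acox2, the peroxisomal oxidase for branched chains and bile acid precursors, passed the filter on low values only through control and bacterium libraries and so had to differ between groups. It was at 0.604, 3.26 and 3.16 FPKM in control, at most 0.072 in HFD and at 0.541, 1.25 and 0.599 in the bacterium group. Its difference in HFD against control was -1.57 (SE 0.35, limma adjusted p = 0.016), a call lost with the replicate block and without control replicate 2 or any HFD library (adjusted p up to 0.059). Acacb, which makes the malonyl-CoA that blocks Cpt1a, was at 4.84 ± 1.55, 0.975 ± 0.118 and 4.08 ± 0.139 FPKM, lowest in the 3 HFD libraries. It was called in both comparisons (-1.54 and 1.37, SE 0.17, limma adjusted p = 0.00064 and 0.0014), and both calls held in all 20 alternatives. Slc27a4, a fatty acid carrier of the plasma membrane, stood at 37.6 ± 18.7, 6.83 ± 0.720 and 23.3 ± 2.22 FPKM and was called in both comparisons (-2.16 and 1.63, limma adjusted p = 0.0039 and 0.018), the second lost without any HFD library or bacterium replicate 1 or 4 (adjusted p up to 0.076). Ppargc1a, a coactivator of mitochondrial genes, was at 3.11 ± 0.570, 10.4 ± 0.601 and 5.99 ± 1.77 FPKM, higher in HFD than in control (1.48, limma adjusted p = 0.0011) and lower in the bacterium group than in HFD (-0.74, limma adjusted p = 0.034). The lower level was lost in 9 of 20 alternatives, among them leaving out control replicate 2, any HFD library or bacterium replicate 1 or 3 (adjusted p from 0.01 to 0.12). Pecr, a peroxisomal reductase, was lower in the bacterium group than in HFD (3.02 ± 0.875 against 5.59 ± 0.710 FPKM, -0.73, limma adjusted p = 0.030), lost in 7 of 20 alternatives (0.014 to 0.11), among them without any HFD library or bacterium replicate 1 or 4. Mlycd, which clears malonyl-CoA, was at 16.1 ± 0.887 FPKM in control, 9.52 ± 0.459 in HFD and 9.996 ± 0.339 in the bacterium group. It fell in HFD (-0.70, limma adjusted p = 0.0019), a call lost in 1 of 20 alternatives, pan-epithelial scaling (adjusted p = 0.18), and the bacterium group against HFD was at 0.06 (limma adjusted p = 0.72). It was the only further gene called between the bacterium group and control (-0.64, limma adjusted p = 0.037). That call was lost in 14 of 20 alternatives (adjusted p from 0.019 to 0.38), each left-out library among them except control replicate 1 and bacterium replicate 3.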

How the data were processed

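RNA of mouse colon was sequenced in 9 libraries, 3 per group, grouped by their treatment labels and numbered by their titles. The authors deposited FPKM values in a table of 54491 rows, of which 22310 were 0 in every library and 0 value columns were left unused. The aligner was HISAT2 2.0.5 and the genome build GRCm39, per the submitters' processing notes. The counting tool, the annotation and the strand setting are not given in the sources used, so values of overlapping genes are uncertain. A symbol was found for 52093 identifiers.

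Differences were tested with limma 3.58.1 (R 4.3.3) on log2(FPKM + 1), with a variance trend, all 9 libraries in 1 fit and no covariate, for 17907 genes that reached 0.5 FPKM in 3 or more libraries. The pseudocount of 1 FPKM understates fold changes of low genes. The fit was tested on simulated data with 1 spread per gene for all groups, so that test does not cover the wider spread within control. The labels do not say that libraries came from separate mice, so p-values measure the spread between libraries. Total depth is unknown. Low values stood in whole-number ratios, which gave relative depths from 0.822 to 1.103, with 1.0 for control replicate 1, so depth differed by at most 1.342-fold. Groups of 3 libraries limit the precision.

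The members and gene lists were chosen with earlier results of these data known. Members called in any comparison are given per library, and of the further genes at most 3 per direction and comparison, called with groups that do not overlap and with the largest differences. Some genes of the list of further genes are not reported here and are in none of its counts. Shared 50-base stretches came from GENCODE M21 transcripts, and upstream sequences from RefSeq (GRCm38.p6). Alternatives covered the pseudocount, filter, variance model, scaling, groups in the fit, a replicate block and each library left out.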

Additional observations from a re-analysis of the deposited data

How the results depend on the processing

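Over the 20 alternatives the calls of Pdk4 and Acaa1b held in both comparisons that involve HFD, as did that of Etfb in HFD against control. For Acaa1b this adds no support, since it passed the filter only through control and bacterium libraries and had to differ between groups. No called difference of a member or of the 9 further genes named changed sign. Signs of uncalled members did change (Acot8 in 8 settings for HFD against control). Of the further genes, the 9 described by name were put through the same alternatives, which was chosen after the data were seen. Members called higher and lower in HFD against control (1 and 5 as reported) numbered 1 and 3 under TPM scaling, 2 and 4 without mitochondrial and immunoglobulin genes, 2 and 3 under pan-epithelial scaling, 0 and 4 with the replicate block, and 0 to 1 and 3 to 24 when leaving out single libraries. All-gene counts for the 3 scalings are given below. With the block 1125 and 860 of 17907 tested genes were called higher and lower, and 909 to 2144 and 703 to 2383 leaving out single libraries. For the bacterium group against HFD (3 and 1) they numbered 5 and 0 under quantile normalization, 6 and 1 without mitochondrial and immunoglobulin genes, 6 and 0 under pan-epithelial scaling, 12 and 1 with only the 2 groups in the fit, 3 and 0 with the replicate block, and 2 to 14 and 0 to 1 leaving out single libraries. In the same order, all-gene calls higher and lower were 1047 and 1364 of 17907, 843 and 1357 of 17753, and 686 and 992 of 18066. They were 1533 and 1783 of 16962 with only the 2 groups and 478 and 810 of 17907 with the block. Leaving out single libraries gave 380 to 1658 and 611 to 1945. For the bacterium group against control the member called lower (1) became 0 under pan-epithelial scaling, with only the 2 groups or with the block, and 0 to 3 leaving out single libraries.

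Over all genes, 3535 calls in HFD against control became 1985 with the replicate block and 1612 to 4527 leaving out single libraries. The 2174 calls of the bacterium group against HFD became 3316 with only the 2 groups, 1288 with the block and 991 to 3603 leaving out single libraries. The 198 calls of the bacterium group against control became 15 with no filter, 309 with a mean of at least 1 FPKM, 22 under TPM scaling, 46 under quantile normalization, 377 without mitochondrial and immunoglobulin genes, 17 under pan-epithelial scaling, 10 with only the 2 groups, 0 with the block and 0 to 1187 leaving out single libraries. The cause of these changes was not tested. Deviations of same-numbered libraries correlated at -0.156 to 0.187, and any pair of groups shares only 2 numbers, so that the libraries share a number and no known pairing.

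TPM scaling moved the median of all genes in HFD against control to 0.20, removal of mitochondrial and immunoglobulin genes to 0.17 and pan-epithelial scaling to 0.28, with the members at -0.27, -0.31 and -0.15, of which 22, 22 and 21 of 31 lay below 0. Higher and lower calls over all genes were then 3375 and 898, 3155 and 965, and 3242 and 557, against 1903 and 1632 as deposited. The medians of the peroxisomal, mitochondrial and ketone body genes kept their sign under each scaling in both comparisons with HFD, and in the bacterium group against control that of the mitochondrial genes changed sign.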
